A study of Homo sapiens with 4 samples.

Results

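MALAT1, NEAT1, KCNQ1OT1, TUG1, HULC, OIP5-AS1, PVT1 and DANCR are long noncoding RNAs, and their levels were compared in cells labelled HepG2, wild-type or with a knockout of TXNDC9. The 8 genes were taken by symbol from a table of 57979 genes. Only 6 of them had a mean above 1 FPKM (fragments per kilobase of transcript, scaled to the mapped fragments of the library) over the 4 libraries and could be tested, among 13246 tested genes. KCNQ1OT1 and HULC were close to 0 and are described without a test, so the name "abundant" holds for 6 of the 8.

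HepG2 is a line grown from a human liver cancer. Both groups were grown in DMEM with fetal bovine serum, and the knockout was made with CRISPR-Cas9 through a lentiviral vector carrying a guide against TXNDC9, which encodes a protein with a thioredoxin domain. Polyadenylated RNA was sequenced from 2 wild-type and 2 knockout libraries. Nothing in the labels says that the libraries of a group came from separate cultures, so the p-values measure the spread between libraries, which may be technical. TXNDC9 itself stood at 35.1 and 37.3 FPKM without the knockout and at 21.9 and 27.6 FPKM with it, a log2 fold change of −0.55 (adjusted p = 0.0145 from limma, and 0.00267 with the replicate number as a block), and the sign turned to 0.12 once libraries were scaled to equal sums. The label HepG2 was checked against 10 liver genes, among them ALB, AFP, TTR, SERPINA1, APOA1, APOB, FGB, TF and HNF4A. None reached 1 FPKM in any library, the highest value was 0.449 FPKM, and the summed level of the list ran from 0.0479 to 0.733 FPKM per library, so the defining liver transcripts were near 0 in all 4 libraries. Of 9 markers of fibroblasts, blood cells and endothelium, 4 passed 1 FPKM in some library, and their sum ran from 40.6 to 55.4 FPKM. Of these PDGFRB, the PDGF receptor of mesenchymal cells, rose from 1.08 and 0.735 to 3.004 and 2.62 FPKM (log2 fold change 1.55, adjusted p = 0.00392 from limma), and COL3A1 fell from 19.4 and 24.0 to 13.4 and 13.1 FPKM (log2 fold change −0.70, adjusted p = 0.00503, and −0.02 after scaling to equal sums). Their part in the results that follow was not tested.

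Long noncoding RNAs are transcribed and often spliced like mRNAs but act as RNA. MALAT1 sits in nuclear speckles, the stores of splicing factors, while NEAT1 is the scaffold on which paraspeckles form. OIP5-AS1, TUG1 and DANCR act in part through microRNAs or RNA-binding proteins, PVT1 lies beside the MYC oncogene, KCNQ1OT1 silences genes of an imprinted cluster, and HULC was named for its high level in liver cancer.

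The first sequences shown are the 3′ ends of MALAT1 and NEAT1, because the libraries were made by capture on poly(A). The long forms of both RNAs are cut by RNase P instead of being given a poly(A) tail, and U-rich sequence folds back on an A-rich stretch in the genome's own sequence to form a protective triple helix. Capitals mark a U-rich stretch, TTTTGCT with any further T, and the run of A followed by GCAAAA, while other runs of T are left in lower case. Both were read from hg38 on the plus strand of chromosome 11 at chr11:65506038-65506146 and chr11:65445470-65445570.
MALAT1: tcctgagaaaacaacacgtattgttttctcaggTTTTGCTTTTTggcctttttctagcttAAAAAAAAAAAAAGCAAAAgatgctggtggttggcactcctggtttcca
NEAT1: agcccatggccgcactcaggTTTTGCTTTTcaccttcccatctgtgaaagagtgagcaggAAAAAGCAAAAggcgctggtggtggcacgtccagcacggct
The run of A before GCAAAA was 13 bases long in MALAT1 and 5 in NEAT1, and the longest stretch common to both ends had 16 bases. The RefSeq span of NEAT1 ended exactly at this A-rich stretch. How much of either RNA was captured by its own A-rich stretch was not tested, and the gene-level values do not separate the short, polyadenylated NEAT1 from the long form.

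OIP5-AS1, known as Cyrano in other vertebrates, is shown with miR-7 because it carries an unusually complete site for this microRNA. Capitals mark bases 2 to 8 of miR-7, its seed, and the complement of the seed in the site, which lies on chr15:41300574-41300599 of hg38.
miR-7-5p: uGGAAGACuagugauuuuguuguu
OIP5-AS1 site: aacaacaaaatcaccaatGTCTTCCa
Of 4 seed matches on the plus strand of the locus, this one paired at 15 of the 16 bases of miR-7 beyond the seed, and the next best at 7.

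Start sites are shown for the tested genes with a promoter in the RefSeq table (GRCh38.p14), which held 4 of the 8. Each window runs from 250 bases before to 50 after the start. Capitals mark CACGTG, the E-box recognised by MYC with MAX, CCAAT or its reverse ATTGG, and GGGCGG or its reverse CCGCCC, on both strands with overlapping matches counted.
TUG1, chr22:30969015-30969314: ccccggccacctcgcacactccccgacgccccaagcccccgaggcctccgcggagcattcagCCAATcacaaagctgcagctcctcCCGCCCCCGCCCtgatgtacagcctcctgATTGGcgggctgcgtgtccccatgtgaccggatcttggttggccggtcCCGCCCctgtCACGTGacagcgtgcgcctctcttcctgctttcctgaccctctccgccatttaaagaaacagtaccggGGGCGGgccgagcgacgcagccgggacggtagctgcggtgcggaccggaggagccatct
OIP5-AS1, chr15:41283740-41284039: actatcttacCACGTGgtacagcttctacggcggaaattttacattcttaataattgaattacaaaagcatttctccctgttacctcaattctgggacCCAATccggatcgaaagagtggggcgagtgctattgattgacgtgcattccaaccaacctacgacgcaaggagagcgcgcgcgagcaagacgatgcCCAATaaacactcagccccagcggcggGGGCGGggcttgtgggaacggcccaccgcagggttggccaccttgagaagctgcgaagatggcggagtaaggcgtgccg
MALAT1, chr11:65497488-65497787: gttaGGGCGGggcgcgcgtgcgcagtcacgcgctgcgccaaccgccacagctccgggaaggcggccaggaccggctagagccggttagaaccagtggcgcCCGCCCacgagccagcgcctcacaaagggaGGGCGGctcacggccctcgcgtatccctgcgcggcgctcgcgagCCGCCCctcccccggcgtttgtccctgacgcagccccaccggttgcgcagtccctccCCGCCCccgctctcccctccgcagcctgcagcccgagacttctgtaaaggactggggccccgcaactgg
DANCR, chr4:52712144-52712443: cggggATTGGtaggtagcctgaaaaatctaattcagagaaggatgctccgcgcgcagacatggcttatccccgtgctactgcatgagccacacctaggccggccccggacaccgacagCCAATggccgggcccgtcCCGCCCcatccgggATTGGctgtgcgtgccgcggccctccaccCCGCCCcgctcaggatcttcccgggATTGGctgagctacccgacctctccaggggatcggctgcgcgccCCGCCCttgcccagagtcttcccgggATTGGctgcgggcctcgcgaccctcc
CACGTG occurred once in TUG1 and once in OIP5-AS1, and in 0 of the MALAT1 and DANCR windows, against 7.26% of the 35116 promoters of the same length. DANCR held 5 matches to CCAAT, where 0.940% of all promoters held 4 or more, and TUG1 and OIP5-AS1 held 2 each. GGGCGG, found in 15786 of the 35116 promoters, occurred 5 times in MALAT1, 4 in TUG1, 3 in DANCR and 1 in OIP5-AS1. The table holds a second start of MALAT1, with its window at chr11:65498795-65499094, and there each of the 3 motifs had 0 matches. These matches describe the windows and are not evidence of binding.

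In the comparison of knockout with wild-type cells, 3 of the 6 tested RNAs rose (MALAT1, TUG1 and OIP5-AS1), 2 fell (PVT1 and DANCR), and NEAT1 was higher without passing the test. A gene passed at an adjusted p under 0.01 from limma on log2(FPKM + 0.1), with Benjamini-Hochberg adjustment over all 13246 genes, and was called when it also changed at least 2-fold. On this scale, 23.7% of all tested genes passed as higher and 27.1% as lower, while 14.2% were called higher and 15.3% lower. MALAT1 and TUG1 were called, and none of the 6 was called lower. For all 6, both knockout values lay on one side of both wild-type values, as they did above for 40.1% and below for 45.9% of all tested genes, and for 29.9% and 48.1% of the 1508 tested genes that GENCODE lists as lncRNA. Bulk RNA does not tell fewer cells making an RNA from less of it per cell.

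**Figure D1:**
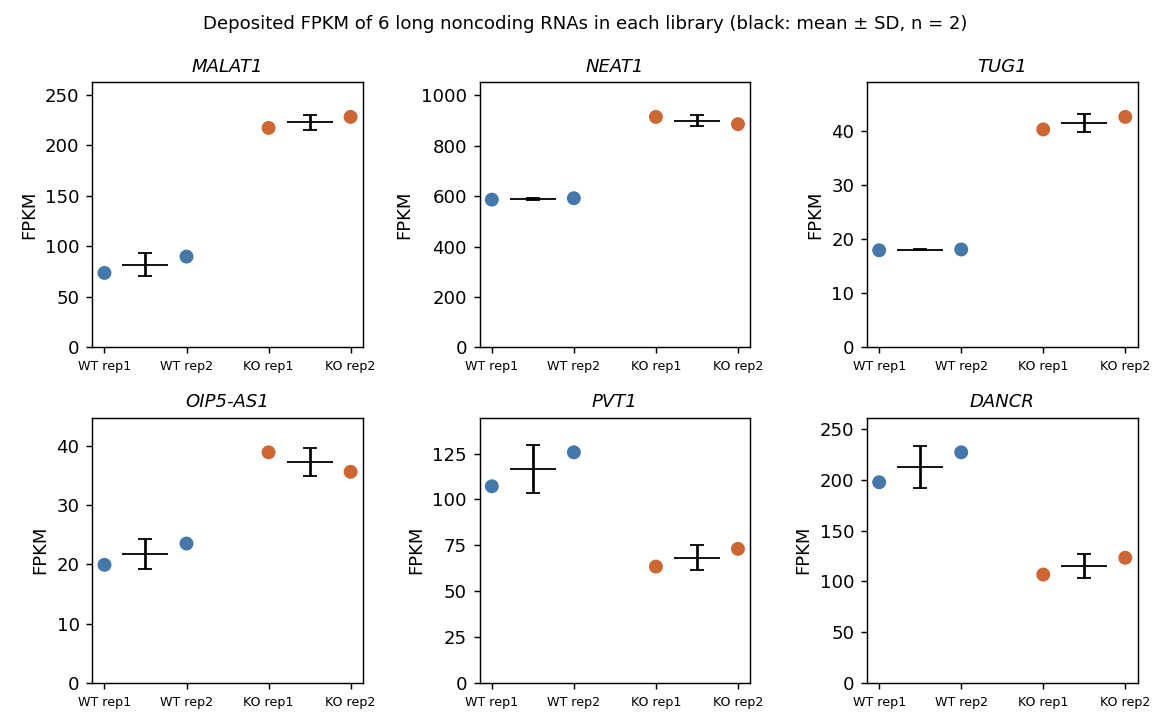
FPKM (vertical axes from 0) of the 6 tested long noncoding RNAs in each of the 4 libraries, with wild-type libraries in blue, knockout libraries in orange and the mean ± SD of each group (n = 2) in black. MALAT1, NEAT1, TUG1 and OIP5-AS1 sit higher in both knockout libraries, PVT1 and DANCR lower, and no groups overlap.

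MALAT1 (ENSG00000251562, chromosome 11 of hg38 from 65497640 to 65508073) showed the largest change of the 6 on the deposited scale. Wild-type libraries held 73.7 and 89.8 FPKM, knockout libraries 217 and 228 FPKM. The groups were far apart, and the mean went from 81.8 ± 11.4 to 222.5 ± 7.69 FPKM (SD, n = 2), a ratio of 2.72. On the log2 scale this was a rise of 1.45 (limma, standard error 0.14, adjusted p = 6.62e-04). Its place in the order of all tested genes moved from 1779 in wild-type to 346 in knockout cells. A second line carrying the symbol MALAT1, a short misc_RNA model (ENSG00000278217) inside the locus, was listed at 0 in every library. TALAM1, the antisense transcript across most of MALAT1, was not analysed here, and the sources used here do not say whether reads were counted by strand.

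NEAT1 (ENSG00000245532, chromosome 11 from 65422774 to 65445540), the neighbour of MALAT1, was the highest of the 8. It stood at 586 and 592 FPKM without and 914 and 886 FPKM with the knockout. Replicates of each group lay close together and the groups were apart, with means of 589 ± 3.93 and 900.1 ± 20.3 FPKM (SD, n = 2). The difference of 0.61 on the log2 scale (standard error 0.14) had an adjusted p of 0.0113 in limma, short of the threshold. With the replicate number as a block it passed (adjusted p = 0.00457 from limma), although the replicate numbers did not pair the libraries, and so it did among the genes with a mean above 5 FPKM (adjusted p = 0.00865).

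TUG1 (ENSG00000253352, chromosome 22 from 30969245 to 30979395) is needed in retinal development and binds chromatin regulators. GENCODE release 44 lists the locus as protein coding. Values of 18.0 and 18.1 FPKM in wild-type cells stood against 40.3 and 42.6 FPKM in the knockout. Both groups were tight and well separated, with a ratio of means of 2.30 and a log2 fold change of 1.20 (standard error 0.10, adjusted p = 5.41e-04 from limma). A pair of antisense lncRNA models overlap its exons, and these were at 8.33, 3.72, 23.0 and 23.2 FPKM (ENSG00000269987) and at 13.4, 9.05, 14.2 and 18.8 FPKM (ENSG00000269972), in the order wild-type replicates 1 and 2, knockout replicates 1 and 2. Whether reads of these models were shared with TUG1 was not tested.

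OIP5-AS1 (ENSG00000247556, chromosome 15 from 41283958 to 41322392), which bears the miR-7 site shown above, had 19.9 and 23.5 FPKM in wild-type cells, against 38.9 and 35.6 FPKM in the knockout. The ratio of means was 1.72, so it rose by less than 2-fold, with a log2 fold change of 0.78 (standard error 0.12, adjusted p = 0.00272 from limma). Its exons overlap OIP5 on the opposite strand, a gene for a centromere protein, which had 42.2 and 44.2 FPKM in wild-type cells against 36.4 and 37.4 FPKM (log2 fold change −0.23, adjusted p = 0.0822 from limma, and 0.45 after scaling to equal sums). They also overlap NUSAP1 on the same strand, which codes for a spindle protein and was 87.8, 72.0, 103 and 103 FPKM in the same order of libraries. Neither overlapping gene passed the test.

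PVT1 (ENSG00000249859), downstream of MYC on chromosome 8 and host to several microRNAs, had 107 and 126 FPKM in wild-type cells, against 63.4 and 73.0 FPKM in the knockout. Means were 116.4 ± 13.1 and 68.2 ± 6.83 FPKM (SD, n = 2), and PVT1 fell by 0.77 on the log2 scale (standard error 0.14, adjusted p = 0.00396 from limma). MYC itself had 175 and 168 FPKM, against 129 and 130.1 FPKM in the knockout, which did not pass (log2 fold change −0.41, adjusted p = 0.0182 from limma) and had the opposite sign, 0.28, after scaling to equal sums. With the length and GC correction given below, MYC passed as lower, at −0.60 (adjusted p = 0.00236 from limma), close to PVT1 at −0.69. Before that correction PVT1 stood at 0.611 and 0.749 of the MYC value in the wild-type libraries. It stood at 0.491 and 0.561 in the knockout libraries, so the uncorrected ratio was lower in both knockout libraries. One annotated small nuclear RNA inside the locus, RNVU1-32, was listed at 25.7, 0, 30.7 and 29.3 FPKM in the same order of libraries, and its share in the reads of PVT1 was not tested.

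DANCR (ENSG00000226950, chromosome 4 from 52712325 to 52723623) restrains differentiation in progenitor cells and hosts the small nucleolar RNA SNORA26. Wild-type libraries had 198 and 227 FPKM and knockout libraries 107 and 123 FPKM. The ratio of wild-type to knockout means was 1.85, and DANCR fell by 0.88 on the log2 scale (standard error 0.14, adjusted p = 0.00252 from limma). Of 15 other hosts of small nucleolar RNAs among the listed lncRNAs, grouped after their values were seen, 11 passed as lower, 1 as higher and 3 did not pass, with a median of −0.89. Over all tested genes 27.1% passed as lower and 23.7% as higher. On the TPM scale 6 of these hosts passed as lower and 1 as higher, with a median of −0.21. There 10.4% of all tested genes passed as lower and 44.7% as higher. With the length and GC correction given below, GAS5 was at −0.49, SNHG12 at −0.80 and SNHG14 at 0.09. GAS5 had 660 and 879 against 397 and 426 FPKM (log2 fold change −0.89) and SNHG12 67.3 and 72.9 against 26.1 and 29.8 FPKM (log2 fold change −1.33), while SNHG14 was the one that passed as higher (log2 fold change 0.52).

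KCNQ1OT1 (ENSG00000269821, chromosome 11 from 2597308 to 2700003), the antisense transcript of KCNQ1 that silences neighbours on the paternal chromosome, was listed at 9.02e-04 and 0.00240 FPKM without the knockout and at 0.00432 and 0.00507 FPKM with it. KCNQ1 was also low, from 0.654 to 1.47 FPKM over the 4 libraries. HULC had a pair of lines. The one with the higher mean, a misc_RNA model of 240 nt inside the HULC locus (ENSG00000276019), was at 0.917 FPKM in knockout replicate 1 and listed at 0 in the other libraries. The other line (ENSG00000251164) had 0.183 and 0.538 FPKM in wild-type cells, and both knockout libraries were listed at 0. The lines pointed in opposite directions and none reached 1 FPKM, so no fold change is given for either gene.

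The order of the levels per transcript length differed between the groups. In wild-type cells it ran NEAT1, DANCR, PVT1, MALAT1, OIP5-AS1, TUG1, and in knockout cells NEAT1, MALAT1, DANCR, PVT1, TUG1, OIP5-AS1. Neighbours in these orders did not overlap within a group. The closest by ratio of means were TUG1 and OIP5-AS1 in knockout cells, at 41.5 ± 1.64 and 37.2 ± 2.33 FPKM (SD, n = 2). Among the 1508 tested lncRNA genes, NEAT1 stood in place 8 by mean FPKM over the 4 libraries, DANCR in place 20, MALAT1 in place 21, PVT1 in place 32 and OIP5-AS1 in place 103.

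Ratios of 2 RNAs within a library do not depend on how that library was scaled as a whole. Effects of transcript length or GC content need not cancel in them. With a correction for both, given below, log2 fold changes were 0.43 (MALAT1), −1.17 (DANCR), 0.35 (TUG1) and −0.69 (PVT1). MALAT1 was 0.372 and 0.395 of DANCR in the wild-type libraries and 2.03 and 1.85 times DANCR in the knockout libraries. TUG1 was 0.168 and 0.144 of PVT1 in wild-type and 0.636 and 0.584 in knockout libraries. The neighbours MALAT1 and NEAT1 drew closer in proportion, with MALAT1 at 0.126 and 0.152 of NEAT1 in wild-type and 0.237 and 0.257 in knockout libraries. Before that correction PVT1 and DANCR kept nearly the same proportion, 0.541 and 0.553 against 0.593 and 0.592. With 2 libraries in each group the smallest p of an exact permutation test is 0.33, so these ratios are given as values.

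**Figure D2:**
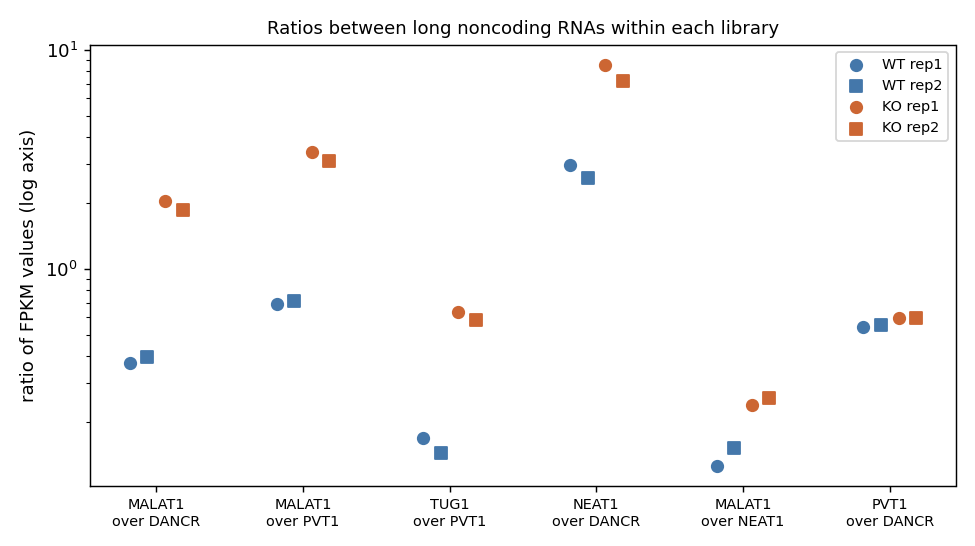
Ratio of the FPKM values of 2 long noncoding RNAs within each library (vertical log axis), with wild-type libraries in blue, knockout libraries in orange, circles for replicate 1 and squares for replicate 2. The ratios of MALAT1 to DANCR, from 0.372 and 0.395 to 2.03 and 1.85, and of TUG1 to PVT1 are higher in both knockout libraries. PVT1 over DANCR stays between 0.541 and 0.593. The values are not corrected for transcript length or GC content.

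The size of these changes depended on scaling. Scaling the 4 libraries to equal sums (TPM) took the median over all tested genes from −0.09 to 0.59 on the log2 scale. It gave MALAT1 2.13, TUG1 1.88, OIP5-AS1 1.46 and NEAT1 1.29, and all 4 then passed, as 44.7% of all tested genes and 27.6% of lncRNA genes did in that direction. PVT1 then had a log2 fold change of −0.09 (adjusted p = 0.436 from limma) and DANCR −0.20 (adjusted p = 0.0824), so neither fall passed, where 10.4% of all tested genes and 10.2% of lncRNA genes passed as lower. Both values lay below the shifted median of all genes.

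Fold changes also followed transcript length. Across 13112 genes, which do not count as replicates and share the same 4 libraries, Spearman's rho between canonical GENCODE transcript length and log2 fold change was 0.495. For the ratio of replicate 2 to replicate 1 it was −0.325 in wild-type and −0.0625 in knockout cells. MALAT1 (10434 nt), TUG1 (7474 nt) and NEAT1 (22743 nt) are long. The median log2 fold change was 0.95 over the 413 tested genes of 9000 to 12000 nt, 0.90 over the 728 of 7000 to 9000 nt and 0.53 over the 18 of at least 20000 nt. MALAT1 at 1.45 and TUG1 at 1.20 were above the medians of their length class, and NEAT1 at 0.61 was near it. DANCR (3959 nt) at −0.88 and OIP5-AS1 (3231 nt) at 0.78 lay on opposite sides of the median of 0.20 over the 3282 genes of 3000 to 5000 nt. PVT1 (2444 nt) at −0.77 was below the median of −0.28 over the 2468 genes of 2000 to 3000 nt.

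**Figure D3:**
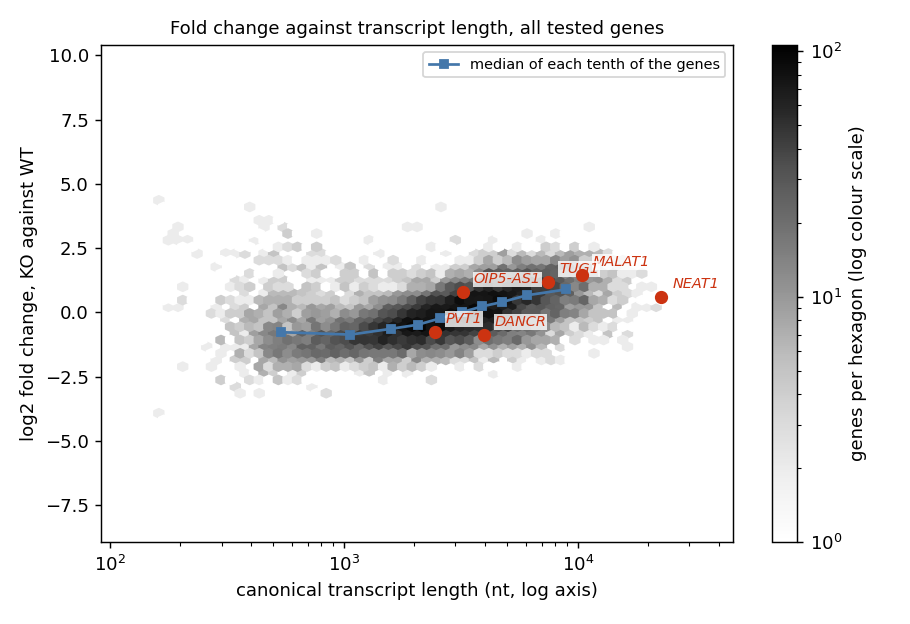
Log2 fold change of knockout against wild-type cells (vertical axis) against canonical transcript length in nt (horizontal log axis) for the tested genes with a length, shaded by genes per hexagon on a log scale, with medians over equal-sized groups of genes in blue. TUG1 and OIP5-AS1 lie above the blue line and PVT1 and DANCR below it, while MALAT1, at 10434 nt, and NEAT1, at 22743 nt, lie beyond its right end.

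After each library was corrected for transcript length and GC content with a loess curve, MALAT1 had a log2 fold change of 0.43 (adjusted p = 0.0252 from limma) and TUG1 one of 0.35 (adjusted p = 0.0120), and neither passed any longer. NEAT1 turned to −0.31 (adjusted p = 0.0165). OIP5-AS1 kept its rise at 0.76 (adjusted p = 0.00437), and PVT1 at −0.69 (adjusted p = 0.00317) and DANCR at −1.17 (adjusted p = 0.00132) still passed as lower. These values rest on the canonical GENCODE length of each gene, 22743 nt for NEAT1 and 3959 nt for DANCR. Whether the forms sequenced had these lengths was not tested. After the correction 13.3% of the 13112 genes passed as higher and 19.7% as lower. Without either one of the knockout libraries, 0 of the 13246 genes had an adjusted p under 0.01 in limma (the lowest was 0.0160), although 7129 or more had an unadjusted p under 0.05, and the adjusted p of the 6 RNAs reached values from 0.0237 (MALAT1 and TUG1) to 0.202 (NEAT1).

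**Figure D4:**
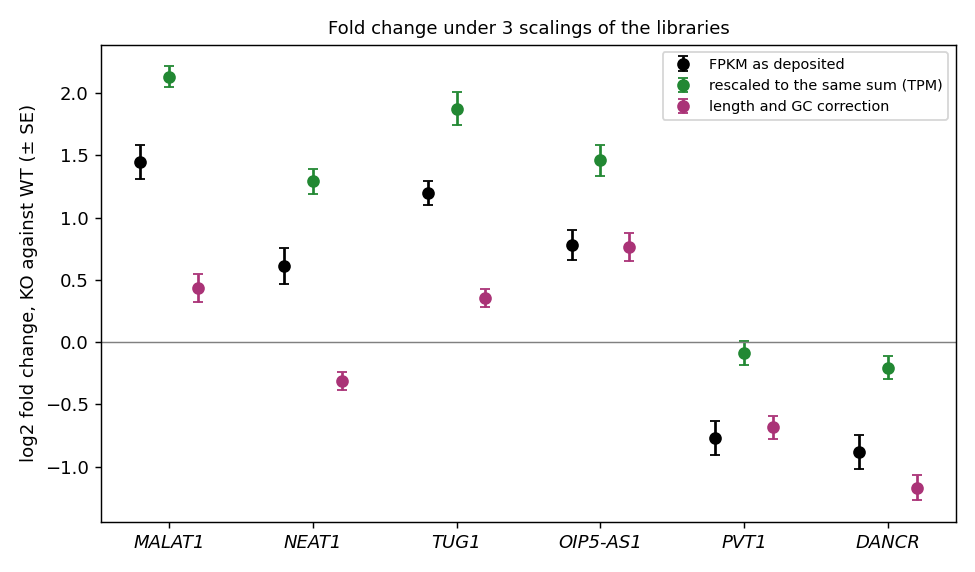
Log2 fold change of knockout against wild-type cells (vertical axis, ± standard error from limma) for the 6 tested long noncoding RNAs, with FPKM as deposited in black, rescaled to the same sum in green and corrected for transcript length and GC content in purple. MALAT1, TUG1 and OIP5-AS1 have values above 0 and PVT1 and DANCR below 0 in all 3, while NEAT1 runs from −0.31 to 1.29. PVT1 at −0.09 and DANCR at −0.20 did not pass after rescaling.

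The wider class of lncRNA genes was used as the background. Of the 1508 tested, 215 (14.3%) passed as higher and 335 (22.2%) as lower, and their median was −0.28, against −0.09 over all tested genes, and 0.38 after scaling to equal sums. After the length and GC correction the class median was 0.01, and 249 (16.5%) passed as higher and 204 (13.5%) as lower. Spearman's rho between transcript length and log2 fold change was 0.172 over the 1508 lncRNA genes, against 0.495 over 13112 genes of all kinds. By transcript length, the median was −0.63 over the 281 lncRNA genes under 500 nt and 0.53 over the 35 of at least 5000 nt, to which MALAT1 and NEAT1 belong. In that longest class 11 passed as higher and 1 as lower, and after the correction 3 and 4, with a median of −0.12.

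**Figure D5:**
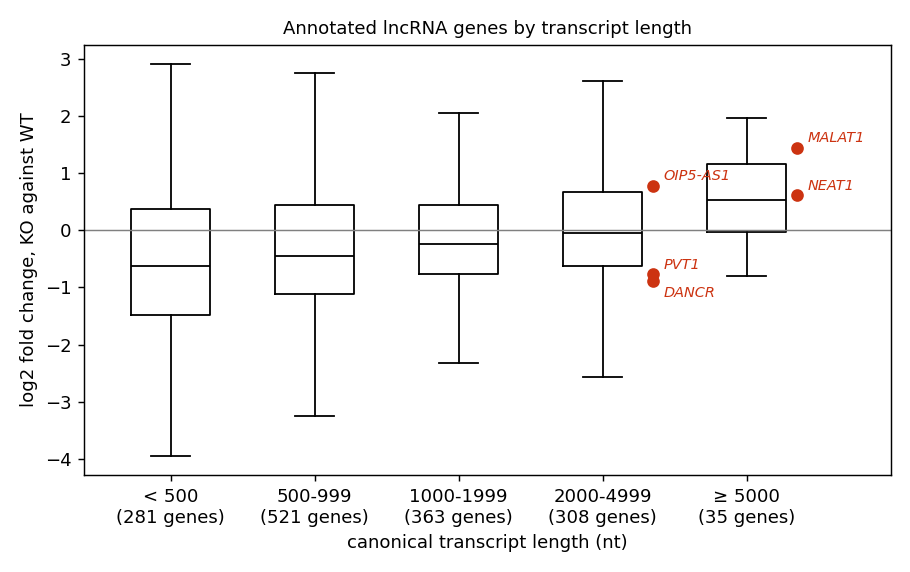
Log2 fold change of knockout against wild-type cells (vertical axis) for the 1508 tested lncRNA genes in 5 classes of canonical transcript length in nt; boxes span the quartiles with the median as a line, whiskers reach the farthest gene within 1.5 box heights, and points beyond are not drawn. The median goes from −0.63 in the shortest class to 0.53 in the longest, and the red points mark 5 of the named RNAs (TUG1 is listed as protein coding).

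Among 54 other well-known lncRNAs, 46 were tested, of which 12 passed as higher and 17 as lower, and the median log2 fold change was −0.39 (0.29 after scaling to equal sums). THRIL, an lncRNA linked to TNF expression, went from 1.17 and 1.48 to 14.8 and 13.9 FPKM, and FTX, from the X-inactivation centre, from 0.280 and 0.635 to 4.21 and 3.59 FPKM. The largest falls among the called were those of MIR210HG, the host of a hypoxia-induced microRNA, from 9.69 and 12.7 to 1.79 and 1.87 FPKM, and of the imprinted H19, from 7278 and 8972 to 2069 and 2036 FPKM. On the deposited scale these 4 had log2 fold changes of 3.35, 2.92, −2.54 and −1.98, all larger in size than that of MALAT1. On the TPM scale they were 4.04, 3.62, −1.89 and −1.30, against 2.13 for MALAT1, so both falls were then smaller in size.

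Genes next to the 8 loci did not move as a block. Of 26 listed neighbours 18 were tested, with 4 passing as higher and 6 as lower, and their median was −0.30 (0.38 after scaling to equal sums). Beside MALAT1 and NEAT1, the TGF-beta binding protein LTBP3 fell by 0.87 on the log2 scale, while FRMD8 was at 15.3 and 15.5 against 18.3 and 16.5 FPKM (adjusted p = 0.195 from limma). Beside TUG1, SMTN, which codes for a protein of smooth muscle, fell from 23.3 and 32.9 to 9.48 and 8.94 FPKM (log2 fold change −1.58), and MORC2 fell by 0.99 on the log2 scale. In the imprinted cluster of KCNQ1OT1, the cell cycle inhibitor CDKN1C fell from 14.4 and 16.3 to 4.83 and 4.48 FPKM, and PHLDA2 from 61.9 and 98.2 to 27.6 and 27.5 FPKM. Next to DANCR the deubiquitinase USP46 rose from 1.86 and 1.69 to 4.82 and 4.27 FPKM (log2 fold change 1.31), a call lost after the length and GC correction.

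Proteins that work with MALAT1 and NEAT1 were looked at by list. Of 32 paraspeckle proteins, 4 passed as higher and 4 as lower, and the list's median was −0.01 (0.67 after scaling to equal sums). RBM12 was the one called higher, from 11.7 ± 1.03 to 36.5 ± 2.13 FPKM (SD, n = 2), while AKAP8L and DAZAP1 fell by 1.13 and 1.08 on the log2 scale. Of 30 nuclear speckle proteins, 10 passed as higher and 8 as lower (median 0.07), with NKTR, from 5.61 and 5.01 to 30.7 and 28.5 FPKM, and DYRK1A at the upper end and SART1, from 62.3 and 83.4 to 18.7 and 18.9 FPKM, and SRRM2 at the lower. On the TPM scale 21 paraspeckle proteins passed as higher and 1 as lower, and 19 and 2 nuclear speckle proteins (median 0.75). After the length and GC correction it was 2 and 10 paraspeckle proteins, and 4 and 10 nuclear speckle proteins.

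RNase P cuts the 3′ ends shown above, and METTL16 binds the triple helix of MALAT1. Of 12 genes in a list of RNase P subunits, the tRNA 3′ nuclease ELAC2 and METTL16, 8 passed as lower and 1 (RPP14) as higher. Over all tested genes 27.1% passed as lower and 23.7% as higher. The median of the list was −1.002, and −0.32 on the TPM scale, where 5 passed as lower and 2 as higher. RPP21 fell from 246 and 315 to 76.1 and 85.9 FPKM and RPP38 from 21.3 and 32.1 to 8.35 and 8.84 FPKM. After the length and GC correction 8 still passed as lower and 0 as higher. Among 23 genes of the nuclear exosome and its adaptors, which degrade nuclear RNA, 11 passed as lower and 4 as higher, with a median of −0.30. On the TPM scale the balance turned, with 5 passing as lower, 9 as higher and a median of 0.38. After the length and GC correction 14 passed as lower and 0 as higher, with a median of −0.515. EXOSC4, a core subunit, fell by 1.67 on the log2 scale and the poly(A)-binding protein PABPN1 by 1.18, while the poly(A) polymerase PAPD5 rose by 1.02, a call lost after the length and GC correction.

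Of 11 proteins reported to bind these RNAs, such as ELAVL1 and the EZH2 complex, 4 passed as higher and 1 as lower, and the median was 0.25. Over all tested genes 23.7% passed as higher and 27.1% as lower. On the TPM scale 9 of the 11 passed as higher and 1 as lower, with a median of 0.93, where 44.7% and 10.4% of all tested genes passed. After the length and GC correction 0 passed as higher and 2 as lower. IGF2BP3, an RNA-binding protein, went from 16.5 and 12.9 to 29.3 and 31.1 FPKM, and the histone methyltransferase EHMT2 from 65.0 and 83.4 to 23.5 and 24.4 FPKM. EZH2 itself had 28.5 and 27.4 FPKM in wild-type cells against 26.8 and 30.7 FPKM, and its groups overlapped.

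The tested genes whose 4 values were most like those of MALAT1, by Euclidean distance of log2 values centred on the wild-type mean, were RP11-174G6.5 (distance 0.0592), SNRK (0.0952) and CHD9 (0.101). CHD9, a chromatin remodeller with a canonical transcript of 11547 nt, went from 5.45 and 6.06 to 15.3 and 16.0 FPKM. Those nearest to NEAT1 were GDAP1 (0.0304), C9orf172 (0.0418) and TM9SF2 (0.0428). With 4 libraries among 13246 genes, such closeness is a description only.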

How the data were processed

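Polyadenylated RNA of 2 wild-type and 2 TXNDC9 knockout libraries was sequenced on an Illumina instrument. Reads had been aligned by the authors to hg38 (TopHat2), and they deposited FPKM per gene and library from Cuffdiff, with group means. They also deposited their own fold changes, p-values and q-values, which were not used. Tool versions, library normalization and strand were not given in the sources used here. Identifiers in the table stood out of register with symbols and were put back in order, so that genes were taken by symbol and the line with the highest mean was used where a symbol repeated. Depth is unknown, since FPKM are not counts. Among low genes the commonest ratio between libraries was shared by at most 4.53% of genes, so values could not be read as multiples of 1 read, and no counting intervals are given. FPKM summed to between 535973 and 971102 per library.

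Genes with a mean above 1 FPKM were fitted with limma 3.58.1 in R 4.3.3 on log2(FPKM + 0.1) with a trend in the prior variance, using all 4 libraries. This scale understates changes of low genes. Adjusted p-values are Benjamini-Hochberg over 13246 genes and two-sided. Transcript length, GC content, biotype and position came from GENCODE release 44, which held 56935 of 57979 identifiers; the correction used a loess curve of span 0.3 per library. The replicate numbers shared by both groups did not pair the libraries (correlation of deviations −0.0904). Genes named from each list were the 2 largest called rises and falls, all 8 RNAs, tested neighbours and the nearest patterns; GAS5, SNHG12, SNHG14, COL3A1, RPP14, EZH2 and overlapping genes were chosen after their values were seen. The 8 RNAs and the lists were chosen with earlier results of these data known. Some listed genes enter the counts but are not reported here by name. The fit was tested on simulated data. Python 3.11.15, pandas 2.3.3, numpy 2.4.6 and matplotlib 3.10.9 were used.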

Additional observations from a re-analysis of the deposited data

How the results depend on the processing

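Counts of the 6 tested RNAs are given as those passing as higher, passing as lower, called higher and called lower, and were 3, 2, 2 and 0 in the analysis reported. Rescaling to TPM gave 0 passing as lower and 4 called higher. Centring on the median gave 1 called lower, which was DANCR at −1.03. Without a trend in the prior variance 4 passed as higher, NEAT1 included (adjusted p = 0.00787), and 1 as lower, PVT1 being lost (adjusted p = 0.0104). Without a filter 2 passed as higher, OIP5-AS1 being lost (adjusted p = 0.0112), and 0 as lower. The length and GC correction left 1 passing as higher, 0 called higher and 1 called lower, with and without the replicate block, and NEAT1 turned to −0.31 in both. The cause of these differences was not tested. With each library left out, in limma fits where the lone library of a group is assumed to vary like the others, the counts ranged from 0 to 4, 0 to 2, 0 to 2 and 0 to 0. Counts of 0 came without either knockout library, where 5 of the 6 had an unadjusted p under 0.05. Over the 4 fits the log2 fold change ranged from 1.31 to 1.59 for MALAT1 and from −0.99 to −0.78 for DANCR.

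Over all tested genes, 1885 were called higher and 2021 lower. These counts were 4380 and 447 after rescaling to TPM, 1452 and 2601 after centring on the median, 841 and 969 after the length and GC correction (841 and 975 with the replicate block), and 1220 were higher with a mean above 5 FPKM. With each library left out they ranged from 0 to 2136 and from 0 to 2633. Of 1508 lncRNA genes, 188 were called higher and 267 lower. Rescaling to TPM gave 362 and 94, a mean above 5 FPKM 66 and 149 of 512, no filter 155 lower, and the length and GC correction 135 lower (133 with the replicate block). With each library left out the ranges were 0 to 252 and 0 to 368.

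The replicate block alone, for libraries that the numbers did not pair, gave 1960 genes called higher and 2146 lower, and for the 6 RNAs changed only NEAT1, which then passed. A pseudocount of 1 or 0.01 and the sum of repeated lines changed no call of the 6 RNAs. Depth is unknown, so no limit can be set on how low KCNQ1OT1 and HULC were.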
